A study of Mus musculus with 9 samples.

Results

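The comparison described here set the array of cells differentiated for 1.5 days without doxycycline (D1.5 Dox-) against the array of cells differentiated for 2.5 days with doxycycline (D2.5 Dox+), 2 of the 9 arrays of the series. The pair was chosen from the measurements: D2.5 Dox+ was the array with doxycycline that lay nearest to D1.5 Dox- over all genes. The question is what still set the media apart once the time offset between them was taken out. The cells were mouse embryonic stem (ES) cells carrying an always-active protein kinase A (PKA), the kinase of cyclic AMP signals, under the control of doxycycline, per the labels. Whether the kinase was made with or without the drug is not stated there, so both groups are named by their medium. All cells had been kept undifferentiated with leukemia inhibitory factor and 1 µg/ml doxycycline, and differentiated in serum medium that lacked the factor, with 1 µg/ml doxycycline (Dox+) or with none (Dox-). The other arrays were of undifferentiated cells and of D0.5, D1.5 and D3.5 Dox+ and D0.5, D2.5 and D3.5 Dox- cells. The labels give no strain, clone or promoter for the line. Each group was 1 array with no replicate, so no difference below carries a test or a p-value, and precision is limited by having 1 array a group.

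When leukemia inhibitory factor is withdrawn, mouse ES cells leave the naive state, pass through a primed epiblast-like state, and in serum form mesoderm, from which precursors of vessels and blood arise. The ETS factor Etv2 is the master regulator of those precursors, and it acts ahead of Fli1, Tal1 and the receptor gene Kdr. Oxygen shortage acts through another set of genes, for glycolysis, growth restraint and vessel signals, which hypoxia-inducible factors switch on through short ACGTG letters in their promoters. Kinase signals of cyclic AMP act in part through CREB, which binds the letters TGACGTCA or their shorter core TGACG.

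Promoter sequences of 6 of the genes that parted the pair are shown first, as examples of genes that hold letters named above. They were picked for holding them, and how often all higher and lower genes do is given at the end. They are the 250 bases before the gene's start, from RefSeq (GRCm38.p6), with the searched letters in capitals, and where ACGTG and CACGT overlap as CACGTG both are marked. Ctla2a (chr13:60936626-60936875, minus strand) and Tal1 (chr4:115057561-115057810, plus strand) were higher in D1.5 Dox- and hold TGACG or its reverse complement CGTCA. Flt1 (chr5:147726012-147726261, minus strand) was also higher and holds the whole TGACGTCA. Its signals were dim, at 45.7 on D1.5 Dox- and 13.8 on D2.5 Dox+, and D3.5 Dox+ reached 46.1. Ddit4 (chr10:59951771-59952020, minus strand), Ier3 (chr17:35821463-35821712, plus strand) and Ppp1r3c (chr19:36736605-36736854, minus strand) were lower and hold ACGTG or its reverse complement CACGT.
Ctla2a: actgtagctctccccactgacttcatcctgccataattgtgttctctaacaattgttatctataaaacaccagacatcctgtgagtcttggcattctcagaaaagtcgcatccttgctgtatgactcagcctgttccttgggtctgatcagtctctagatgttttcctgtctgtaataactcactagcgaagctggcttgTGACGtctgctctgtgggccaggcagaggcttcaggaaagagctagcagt
Tal1: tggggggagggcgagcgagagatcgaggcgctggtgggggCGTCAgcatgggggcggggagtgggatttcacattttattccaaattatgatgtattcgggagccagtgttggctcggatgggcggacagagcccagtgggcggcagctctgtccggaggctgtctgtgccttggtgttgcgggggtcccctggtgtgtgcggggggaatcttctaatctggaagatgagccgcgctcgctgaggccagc
Flt1: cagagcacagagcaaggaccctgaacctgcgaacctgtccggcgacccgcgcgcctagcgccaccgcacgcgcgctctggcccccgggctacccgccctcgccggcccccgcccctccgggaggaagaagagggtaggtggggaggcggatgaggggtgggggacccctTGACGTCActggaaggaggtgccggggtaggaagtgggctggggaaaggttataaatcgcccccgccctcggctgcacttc
Ddit4: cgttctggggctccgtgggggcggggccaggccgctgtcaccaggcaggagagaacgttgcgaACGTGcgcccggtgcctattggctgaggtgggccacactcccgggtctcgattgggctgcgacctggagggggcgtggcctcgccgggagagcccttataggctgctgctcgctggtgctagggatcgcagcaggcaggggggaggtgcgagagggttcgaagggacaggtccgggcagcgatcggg
Ier3: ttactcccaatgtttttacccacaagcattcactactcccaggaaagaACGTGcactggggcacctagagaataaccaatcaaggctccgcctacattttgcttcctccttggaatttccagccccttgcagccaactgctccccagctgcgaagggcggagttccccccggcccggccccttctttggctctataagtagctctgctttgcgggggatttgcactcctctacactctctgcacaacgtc
Ppp1r3c: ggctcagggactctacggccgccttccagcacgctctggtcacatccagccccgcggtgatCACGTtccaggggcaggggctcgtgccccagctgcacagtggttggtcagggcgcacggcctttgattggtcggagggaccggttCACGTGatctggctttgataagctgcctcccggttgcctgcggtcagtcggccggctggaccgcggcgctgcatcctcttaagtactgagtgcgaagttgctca

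Signals are array units, which the authors scaled to an average of 100. Differences are between values of log2(signal + 16), so those of dim genes come out smaller than their ratio of signals. A gene was compared, and is called tested below, if its brightest probe set read 50 or more on at least 2 of the 9 arrays, which 8716 of 18193 genes did. The root mean square difference between D1.5 Dox- and D2.5 Dox+ over these genes was 0.303, against 0.372 for D3.5 Dox+ and 0.400 for D1.5 Dox+. Drawn as a straight line between neighbouring arrays, the Dox+ course came nearest at day 2.8, with 0.281. The median difference of the pair was 0. For Actb, the ratio between probe sets at the 3′ and 5′ ends, which grows as RNA breaks down, was 1.98 on D1.5 Dox- and 1.85 on D2.5 Dox+, with 1.60 to 1.98 over all arrays. The differences between the media on D0.5 had a standard deviation of 0.202, against 0.303 in the stage-matched pair. The D0.5 spread was 0.257 among genes with a mean signal under 50 and 0.151 among those of 1000 or more, and it is the nearest these arrays come to a replicate error, although it holds any early effect of the media.

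In the stage-matched pair 89 genes (1.02% of those tested) were at least 2-fold apart, 67 higher in D1.5 Dox- (0.769% of the tested genes) and 22 lower (0.252%). The same count was 10 genes (0.115%) between the media on D0.5 and 240 (2.75%) between D1.5 Dox- and D1.5 Dox+, a comparison that shares the D1.5 Dox- array and is given for size. Of the 67, 15 were at least 4-fold apart, and of the 22 only Bhlhe40 was. For 54 of the 67 the D2.5 Dox+ signal was under 50, and for 10 of the 22 the D1.5 Dox- signal was. A pseudocount of 1 in place of 16 gave 117 higher and 67 lower, and one of 64 gave 23 and 8. The mean of all probe sets of a gene in place of the brightest gave 39 and 13. Just inside the 2-fold limit lay Zfp36l1 (502 against 240.3) and Shcbp1 (668 against 1353), and just outside it Cdkn1a (a difference of 0.98) and Stc2 (-0.99). At the signal limit, Gatm had a second highest signal of 50.0 and was in, while R3hcc1l had 49.9 and was out. Of the 9477 genes left out by the limit, 30 were at least 2-fold higher and 6 lower, among them the endothelial receptor gene Tek at 62.8 against 12.5 and the embryonic globin gene Hbb-y at 44.8 against 2.7.

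**Figure D1:**
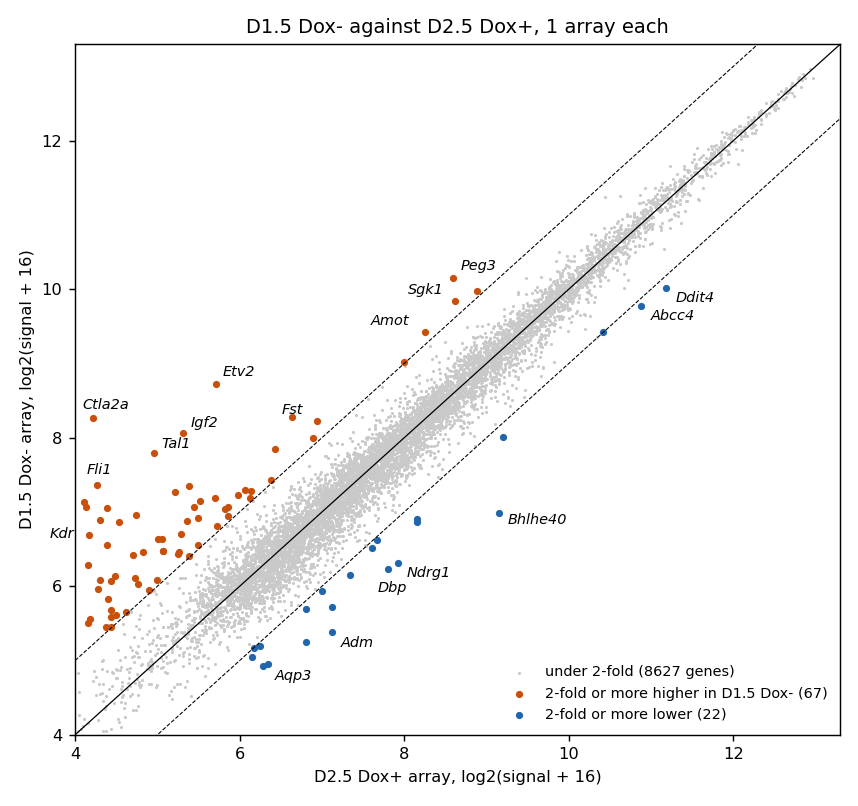
Signal of each of the 8716 tested genes on the D1.5 Dox- array (y axis) and the D2.5 Dox+ array (x axis), both as log2(signal + 16), with dashed lines at 2-fold. The 67 genes higher in D1.5 Dox- (orange) include Ctla2a, Etv2 and Fli1 at the dim end of the D2.5 Dox+ axis, and the 22 lower genes (blue) include Bhlhe40, Adm and Ddit4.

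Of the 15 genes furthest up, 9 were on the list of vascular and blood precursors. The other 6 were Igf2, Ctla2b, Tcim and, from the endoderm list, Sox17, Bmp2 and Hhex. Of the 36 genes on the precursor list, 35 had a probe set and 15 passed the signal limit, of which 13 were at least 2-fold higher in D1.5 Dox- (0.769% of all tested genes were) and 0 were 2-fold lower (0.252%). The other 2, Egfl7 (0.38) and Zfpm1 (0.48), were under 2-fold. The rule for the pair used these same values, so the count describes the pair and supports nothing. The median difference of the 15 was 2.52, against 0 over all tested genes, and was 1.07 over all 35, of which 20 were at least 2-fold higher. Against D1.5 Dox+ the median of the 15 was 2.07. In cultures measured whole, more cells of a type and more RNA per cell cannot be told apart.

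Etv2 read 408 on D1.5 Dox-. It read 33.7 in undifferentiated cells and 24.0, 25.1, 36.2 and 55.2 along the 4 Dox+ days. The other Dox- arrays, D0.5, D2.5 and D3.5, read 32.1, 183 and 290.0. Its difference in the pair was 3.02, and its highest value was at D1.5 Dox-. Fli1, an ETS factor of endothelium and blood that carries the program on, read 148 on D1.5 Dox- and at most 5.9 on any Dox+ array. Its other Dox- values were 0.6, 108 and 108, its difference was 3.09, and a second probe set gave 1.90. Ctla2a, which encodes an inhibitor of cathepsin proteases, read 291 and 282 on D1.5 and D2.5 Dox-, 51.9 on D3.5 Dox-, and at most 5.0 on the undifferentiated, D0.5 Dox- and Dox+ arrays. Its difference of 4.04 was the largest of all tested genes. Ctla2b, a near-identical neighbour whose transcripts its probes may share, differed by 2.58, so these values may not be separate.

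Other regulators of the program had their highest Dox- value on D1.5 as well. Tal1, a helix-loop-helix factor that blood formation requires, read 205 on D1.5 Dox- and 101 and 44.2 on the Dox- arrays of D2.5 and D3.5, against 25.2, 15.2 and 10.5 on those with doxycycline (D1.5 to D3.5). Undifferentiated cells read 73.9, the highest of the arrays kept in doxycycline. Sox18, a factor of endothelial identity, read 118 against 1.5 in the pair and had dropped to 7.6 on D3.5 Dox-. Sox7 (54.5 against 6.3) and Sox17 (100.2 against 7.2) belong to the same subfamily. Second, dimmer probe sets gave 0.30 for Sox7 and 0.49 for Sox17 (14.5 against 5.7), so their differences of 1.66 and 2.32 rest on 1 probe set each. Gata2, a blood progenitor factor, read 108 against 10.7, and Lmo2, which bridges Tal1 and GATA factors, 102 against 24.9. Of the 67 higher genes, 19 had their highest Dox- value on D1.5, 17 on D2.5, 23 on D3.5 and 8 on D0.5. The 67 were chosen for a high D1.5 Dox- value, which favours that day. The same count over all tested genes was not made.

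Several receptor and product genes of these cells read still higher on later Dox- days. Kdr, the receptor through which vascular endothelial growth factor acts, read 87.4 on D1.5 Dox- and then 274 and 483, against 8.7, 2.0 and 21.1 on the Dox+ arrays of D1.5 to D3.5. The embryonic globin gene Hbb-bh1 read 117 and 156 on D1.5 and D2.5 Dox- and at most 10.2 on any array kept in doxycycline. Aplnr, the receptor of apelin in mesoderm and vessels, read 124 on D1.5 Dox- and 1.2 on D2.5 Dox+, but 418 on D3.5 Dox+. A second, dim probe set of Aplnr gave 0.52. Igf2, the imprinted fetal growth factor gene, read 252, 386 and 2151 on D1.5 to D3.5 Dox- and at most 30.5 on any array with doxycycline, with a difference of 2.75. A second, dim probe set of Igf2 read 5.5 and 6.0 on the pair. Of the later markers of vessels and blood on the list, Cdh5 (23.1 against 2.4), Runx1 (13.0 against 8.3), Pecam1 (10.9 against 2.1) and Klf1 (9.0 against 9.2) read under 50 on both arrays.

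**Figure D2:**
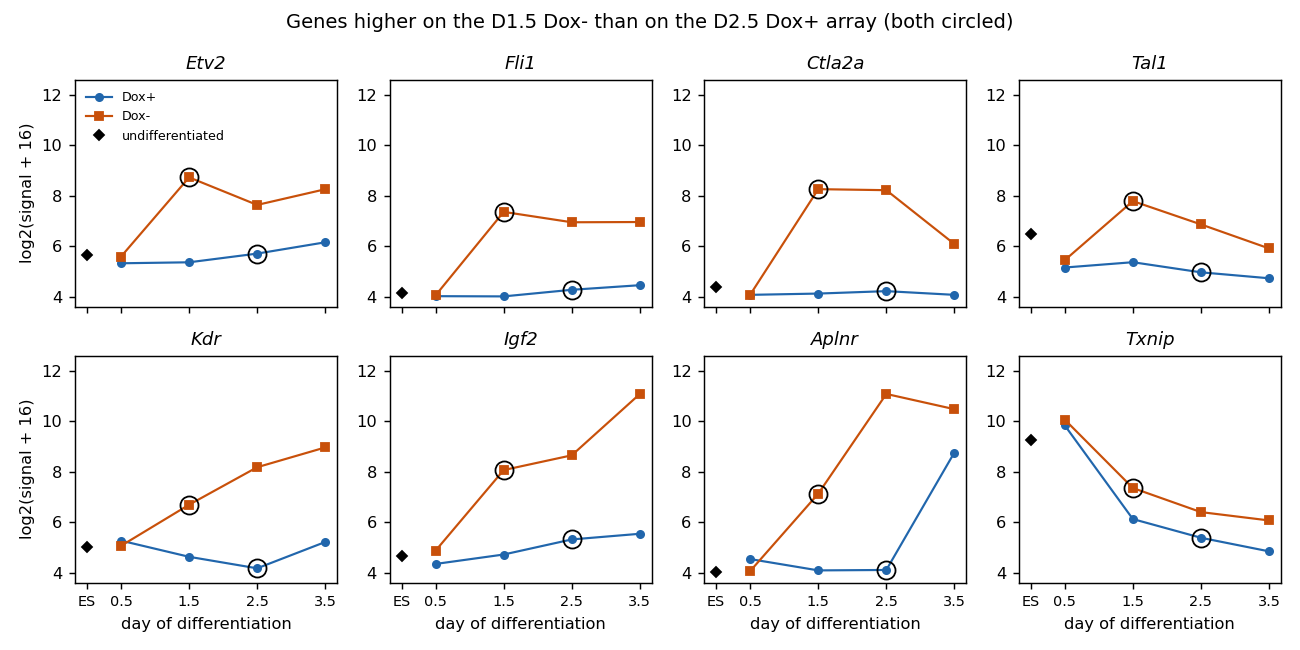
Signal as log2(signal + 16) over the days of differentiation for 8 genes higher in the D1.5 Dox- array, with Dox+ arrays in blue, Dox- arrays in orange, undifferentiated cells (ES) as a diamond and the stage-matched pair circled, 1 array per point. Etv2, Fli1, Ctla2a, Tal1, Kdr and Igf2 stay below the circled Dox- value on every Dox+ array, Aplnr passes it on D3.5 Dox+, and Txnip starts above it and declines.

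Setting each of the 67 higher genes against the whole Dox+ course separated those whose D1.5 Dox- value some array of that course reached from those that none reached. For 21 genes (0.241% of the tested genes) the D1.5 Dox- value was at least 2-fold above the undifferentiated array and all 4 Dox+ arrays, and for 13 more it was above all of them by less. The 21 comprised 11 genes named above (Ctla2a, Ctla2b, Fli1, Etv2, Sox18, Tal1, Igf2, Hbb-bh1, Kdr, Sox17 and Gata2), Sox7 and Lmo2, and 8 others. Those 8 were the semaphorin receptor gene Plxnd1, Procr (the protein C receptor of endothelial and blood stem cells), Tnfaip2, Hapln1, Inka1, Afap1l1, Tcim and Zfp711. Plxnd1 read 71.9 on D1.5 Dox- and at most 18.7 on the arrays kept in doxycycline, and Procr 72.0 and at most 22.5. All of the 21 but Etv2 and Tal1 stayed under the signal limit on the undifferentiated and Dox+ arrays. Those genes were tested only because their Dox- arrays were bright, which favours values above the course. The 0.241% is these same 21 genes and not a background share. With no signal limit, 31 genes were at least 2-fold above the course and 0 below. The count of 21 was 7 at a pseudocount of 64, and 0 genes were at least 2-fold below the whole course, or 7 at a pseudocount of 1. The 5 that came furthest below it were Upp1, Zmym3, Gadd45b, Lgals3 and Phlda2, none of them 2-fold apart in the pair itself. Upp1, a uridine-salvage enzyme gene, read 355 on D1.5 Dox- and at least 596 on all arrays kept in doxycycline.

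The D3.5 Dox+ array alone reached the D1.5 Dox- value of 18 of the 67. These held regulators and signals of the primitive streak and early mesoderm. Fst, which encodes the activin antagonist follistatin, read 283 on D1.5 Dox-, 107 on D2.5 Dox+ and 973 on D3.5 Dox+. Eomes, a T-box factor of the streak, read 118, 42.2 and 911 on the same 3 arrays. Lhx1, a homeobox factor of the anterior streak, read 52.0, 3.8 and 190.1, and Cyp26a1, which breaks down retinoic acid, 70.0, 10.1 and 299. Among 16 tested genes of the streak, 4 exceeded 2-fold (Lhx1, Fst, Eomes and Amot, which encodes a junction scaffold rather than a streak regulator), against 0.769% of all tested genes, and 0 were 2-fold lower, with a median of 0.43. Against the Dox+ course at day 2.8, Lhx1 (0.77), Fst (0.38) and Eomes (0.01) were under 2-fold. The median of the list turned to -0.24, and that of the 7 lateral plate and heart genes from 0.51 to -0.17. Mixl1 (21.0 against 15.7) and Mesp1 (13.8 against 14.6), which mark the streak and the mesoderm leaving it, read under 50 on both arrays.

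For 13 of the 67 an earlier array of the Dox+ course reached the D1.5 Dox- value, and D3.5 Dox+ did not. For all 13 the undifferentiated, D0.5 Dox+ or D1.5 Dox+ array was at or above that value. Txnip, a glucose-responsive inhibitor of thioredoxin, read 1054, 148, 68.4 and 51.1 from D0.5 to D3.5 without doxycycline and 898, 53.7, 25.7 and 12.7 with it. It declined in both media, and on each of the 4 days its Dox- value was the higher. Sgk1, a kinase gene of growth factor and steroid response, read 896 and 375 in the pair, and Nid1, a basement membrane linker, 115 and 40.6. For Zc3hav1 and Gata6, both earlier arrays and D3.5 Dox+ reached the D1.5 Dox- value.

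Of the 32 tested hypoxia and glycolysis genes 4 were at least 2-fold lower in D1.5 Dox- (Adm, Ndrg1, Ier3 and Ddit4; 0.252% of all tested genes were) and 0 higher. Against the Dox+ course at day 2.8, Ier3 (-0.74) and Ddit4 (-0.79) were under 2-fold, as was Ndrg1 (-0.88) with the mean of all its probe sets. In all, 28 of the 32 lay below 0, against 49.8% of all tested genes, and the median was -0.34, or -0.27 over the 34 with a probe set. The glycolysis enzyme genes Aldoa (-0.10), Pgk1 (-0.07) and Ldha (0.14) lay near 0, as did Vegfa (0.07), the vessel growth factor gene. Between these were the oxygen sensor genes Egln3 (-0.96) and Egln1 (-0.66), the pyruvate dehydrogenase kinase gene Pdk1 (-0.66) and the mitophagy gene Bnip3 (-0.63).

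Adm, the gene of the vessel-dilating peptide adrenomedullin, read 47.0, 293, 123 and 25.4 in Dox+ from D0.5 to D3.5, and 65.4, 25.6, 9.1 and 38.0 in Dox-. It peaked on D1.5 in Dox+ and stayed below its D0.5 value on the later Dox- days. Its second probe set gave the same difference in the pair, -1.74. Ddit4 (Redd1), an inhibitor of the growth kinase complex mTORC1, read 2311 on D2.5 Dox+ and 1020 on D1.5 Dox-. Its Dox+ course ran 564, 2256, 2311 and 955, and its Dox- course 613, 1020, 510.1 and 1299. Ndrg1, a stress-induced gene, read 63.6 on D1.5 Dox-, below both its D0.5 arrays (78.8 and 95.8), against 226 on D2.5 Dox+. Ier3, an early stress response gene, read 101 and 269.

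The gene furthest down was Bhlhe40 (Dec1), a repressor that acts in the body clock and in hypoxia. It read 94.2, 487, 550.1 and 165 in Dox+ from D0.5 to D3.5, and 84.4, 111, 46.7 and 326 in Dox-, with a difference of -2.16 in the pair. Dbp, a clock output factor, had a similar course in Dox+, with 54.1, 202, 207 and 106. In Dox- it read 59.8, 59.3, 26.4 and 61.8. On D3.5 it was lower in Dox- than in Dox+, whereas Bhlhe40 was higher. A second probe set of Dbp gave -1.15 beside its -1.57. Ccng2, a cyclin of cells that stop dividing, read 242 against 573, and Ppp1r3c, which directs a phosphatase to glycogen, 14.5 against 61.8. Against the Dox+ course at day 2.8, Ccng2 (-0.86) and Ppp1r3c (-0.92) were under 2-fold. Of the 22 lower genes, 17 were at least 2-fold higher on D2.5 Dox+ than in undifferentiated cells. On 14 of the 22 the D1.5 Dox- value lay within 2-fold of D0.5 Dox-. The shares of all tested genes to set beside these counts were not made, so the counts do not set the 22 apart. From D2.5 to D3.5, 18 of the 22 went up in Dox- (50.4% of all tested genes did) and 17 went down in Dox+ (47.2% did). The 22 were chosen for a D2.5 Dox+ value above that of D1.5 Dox-. Counts that use either array, such as the fall in Dox+, are therefore partly set by that choice.

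**Figure D3:**
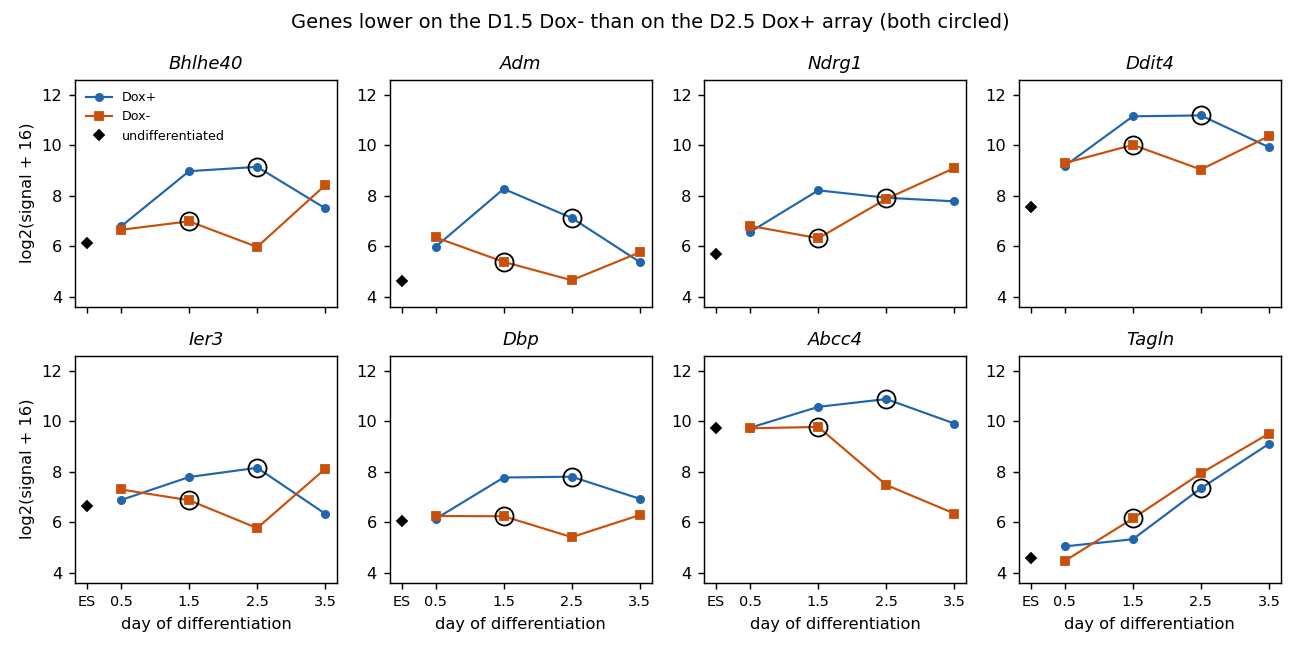
Signal as log2(signal + 16) over the days of differentiation for 8 genes lower in the D1.5 Dox- array, drawn as in the plot of higher genes, 1 array per point. Bhlhe40, Adm, Ddit4, Ier3 and Dbp are higher on D1.5 and D2.5 in Dox+ than on the same days in Dox-, Abcc4 is lower on D2.5 and D3.5 Dox- than on any Dox+ array, and Tagln climbs in both media.

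Other lower genes had single roles. Abcc4, a transporter that carries cyclic AMP out of the cell, read 1871 on D2.5 Dox+ and 861 on D1.5 Dox-, close to the 842 and 828 of the D0.5 arrays, and went on to 162 and 65.1 in Dox-. The smooth muscle and actin-bundling gene Tagln read 54.8 against 147 and climbed in both media, to 714 on D3.5 Dox- and 534 on D3.5 Dox+. Dcn, the matrix proteoglycan gene decorin, read 35.8 against 95.9. Against the Dox+ course at day 2.8, Abcc4 (-0.81) and Dcn (-0.96) were under 2-fold. Nlgn2 read 22.0 against 95.6, but its D0.5 arrays were already 1.23 apart and its second probe set gave 0.06.

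Most lists of cell state did not part the pair. None of the 22 tested naive pluripotency genes was 2-fold apart, 11 lay above 0 (50% of all tested genes did) and 11 below, and their median was 0.03. Against D1.5 Dox+ the median was -0.91, with 10 at least 2-fold lower (1.42% of all tested genes). Fbxo15, an Oct4 target gene of ES cells, read 23.2 on D1.5 Dox-, 28.2 on D2.5 Dox+ and 173 on D1.5 Dox+, and Klf2, a factor of the naive state, 16.9, 28.4 and 171. Zfp42 (Rex1), a marker of that state, read 136, 148 and 323. The 14 germline genes had a median of -0.08 in the pair and -0.82 on D1.5, with Dmrt1 at 53.9, 114 and 337 on these 3 arrays. Both comparisons use the same D1.5 Dox- array. D2.5 Dox+ was chosen as the nearest array over all genes, so medians near 0 in the pair are partly set by that choice.

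Nor were the 28 primed epiblast genes (median 0.05), the 20 general pluripotency genes (0.05), the 30 DNA and histone methylation enzymes (0.03), the 27 sterol and fatty acid synthesis genes (-0.09), the 34 cell cycle and replication genes (0.10) or the 9 neural genes (0.10) 2-fold apart, with 0 genes of these lists at the limit. Fgf5, which marks the primed epiblast, read 755 and 899, Pou5f1 (Oct4) 2095 and 2043, Nanog 685 and 826, and Ehmt2, which encodes the histone methyltransferase G9a, 195 and 180. The largest difference on the cell cycle list was Cdkn1a (0.98), the p21 inhibitor of cyclin-dependent kinases, at 125 against 55.7.

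**Figure D4:**
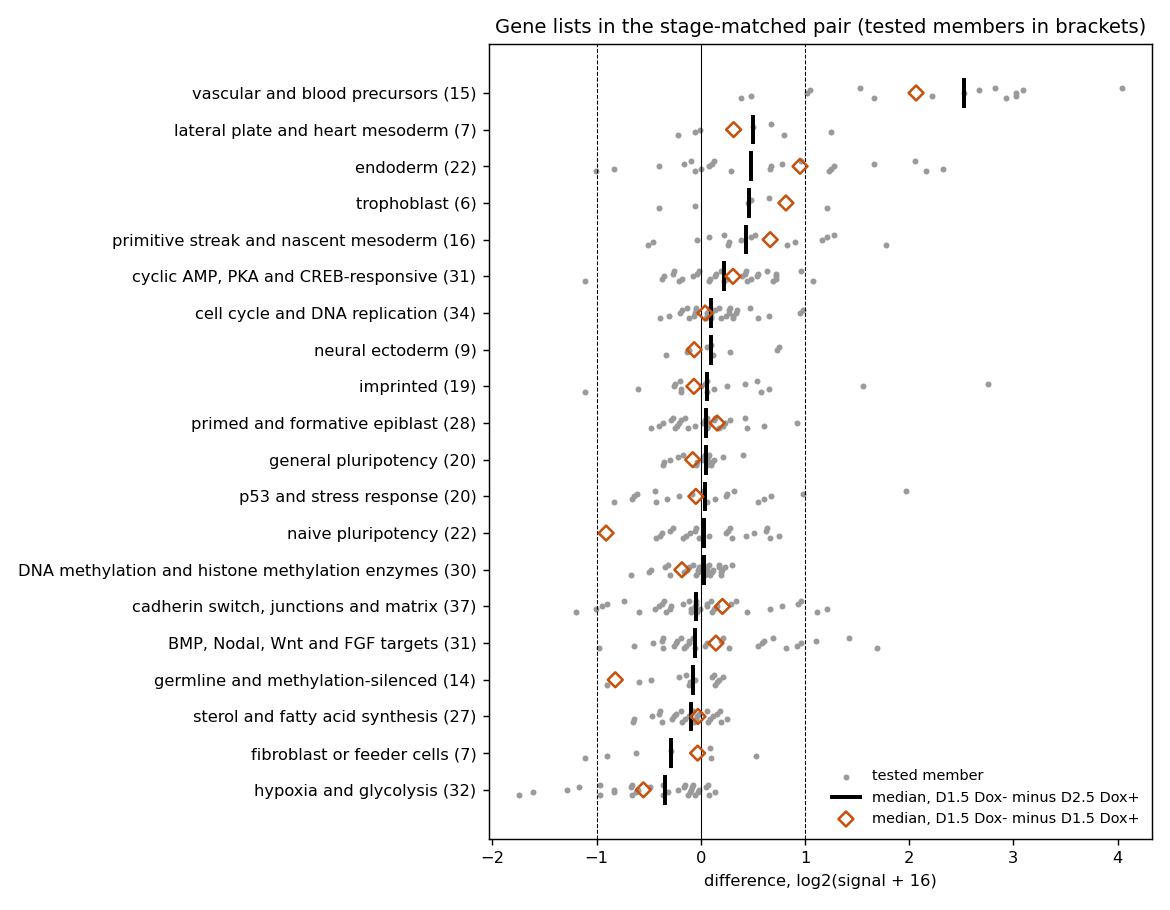
Differences, on the log2(signal + 16) scale, of the tested members of 20 gene lists between D1.5 Dox- and D2.5 Dox+ (grey points, median as a black bar) and the median between D1.5 Dox- and D1.5 Dox+ (orange diamonds), with dashed lines at 2-fold. The naive and germline medians lie near 0 in the stage-matched pair and at -0.91 and -0.82 on D1.5, whereas the precursor median is 2.52 and 2.07.

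Few PKA and cyclic AMP genes were 2-fold apart. Of 31 tested genes of PKA, cyclic AMP breakdown and export and CREB response, only Fos was at least 2-fold higher and only Abcc4 lower. Of all tested genes 0.769% were higher and 0.252% lower. Against the Dox+ course at day 2.8, Fos (0.80) and Abcc4 (-0.81) were under 2-fold. In all, 21 of the 31 lay above 0 (50% of all tested genes did), and the median was 0.23. Prkaca, the catalytic subunit, read 508 on D1.5 Dox- and 538 on D2.5 Dox+. Whether its probes detect the introduced kinase is not known from the labels. Prkar1a, a regulatory subunit that holds the catalytic one inactive, read 632 against 447 (0.48), and Pkig, a PKA inhibitor, 226 against 168 (0.40). The phosphodiesterase genes Pde10a (0.97), Pde8a (0.72), Pde4b (0.55) and Pde4d (0.44), whose products break down cyclic nucleotides, and the early response genes Dusp1 (0.72), Cited2 (0.72) and Egr1 (0.69) were under 2-fold. Fos, an early response gene, differed by 1.08 in the pair but read 51.6 on D1.5 Dox- and 53.2 on D1.5 Dox+.

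Of 31 tested targets of BMP, Nodal, Wnt and FGF, 3 were at least 2-fold higher (Dkk1, Id3 and Id4) and 0 lower. Of all tested genes 0.769% were higher and 0.252% lower. In all, 15 lay above and 16 below 0, with a median of -0.05. Id3, a helix-loop-helix inhibitor, read 238 against 103 (1.10, or 0.72 against the Dox+ course at day 2.8), and Id4, of the same family, 105 against 28.9 (1.42). Their relatives Id1 (485 against 241, 0.97) and Id2 (686 against 768, -0.16) were under 2-fold. Dkk1, a secreted Wnt inhibitor, differed by 1.69, or 0.91 against the course at day 2.8. It read under 50 on both arrays (46.6 against 3.4), and a second, dim probe set gave 0.07. Bmp2, a ligand, read 77.6 against 4.9. The Nodal target Lefty1 read 639 against 1278 (-0.98). Of 19 imprinted genes, Igf2 and Peg3 (1123 against 370.4) were 2-fold higher and Dcn lower. A second probe set of Peg3 gave 2.09, but the mean of all its probe sets gave 0.99 and the Dox+ course at day 2.8 gave 0.92. Of 37 junction and matrix genes, Nid1 and Zeb2 were 2-fold higher and Tagln and Krt19 lower. Zeb2 read under 50 on both arrays (32.9 against 6.6) and was under 2-fold (0.72) against the Dox+ course at day 2.8. Among 20 genes of p53 and stress response only Txnip was 2-fold apart. The shares to set beside the imprinted, junction and stress lists are the same 0.769% higher and 0.252% lower of all tested genes.

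Markers of other cells the culture could hold were checked in the same way. The 19 fibroblast or feeder genes summed to 467 on D1.5 Dox- and 629 on D2.5 Dox+, between 188 and 2589 over all arrays, with a median difference of -0.28 over the 7 tested. The collagen genes on it read 3.7 and 7.4 (Col1a1), 28.6 and 38.3 (Col1a2), 3.9 and 6.4 (Col3a1) and 74.1 and 46.6 (Col5a2). Dcn and Acta2 (82.8 against 168) are on that list, and the part of such cells in their lower values was not tested. The 28 endoderm genes summed to 4196 and 3745. Of 22 tested, 7 were at least 2-fold higher (Sox17, Bmp2, Hhex, Sox7, Fst, Gata6 and Srgn) and 1 lower (Krt19). Of all tested genes 0.769% were higher and 0.252% lower. Against the Dox+ course at day 2.8, Fst (0.38) and Gata6 (0.72) were under 2-fold. Gata6 read under 50 on both arrays (35.5 against 5.6), and the mean of all its probe sets gave 0.51. In all, 16 of the 22 lay above 0 (50% of all tested genes did), and the median of the 22 was 0.48. Sox7, Sox17 and Hhex are also used in blood and vessel precursors. Of other genes on the list, Col4a1 (351 against 173) differed by 0.96 and Cer1, under the signal limit, read 30.9 against 7.1, and Foxa2 (15.2 and 13.5), Afp (5.6 and 2.7) and Ttr (8.7 and 8.0) read under 50 on both arrays. The 18 trophoblast genes summed to 1282 and 1295, with Cdx2 at 13.1 and 4.9. Eomes was the only one of 6 tested that was 2-fold apart (1.02% of all tested genes were). The precursor list summed to 2648 and 512.

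The pair of arrays 1 day later, D2.5 Dox- against D3.5 Dox+, shares no array with the pair above, so it measured the same genes anew. Of the 67 higher genes, 64 had a positive difference there (49.3% of all tested genes did) and 48 were at least 2-fold higher, against 1.85% of all tested genes. Their median was 1.45. The 3 without a positive difference were Chst1 (0.00 when rounded), Id4 (-0.02) and Dyrk3 (-0.07). For 27 of the 67 the undifferentiated and Dox+ arrays were all under 50, so that the genes could enter only through Dox- arrays. Only 25 of the 67 passed the limit on the undifferentiated and Dox+ arrays alone, so all the others needed a Dox- array to pass. That need favours a positive difference in the later pair, and the shares over all tested genes do not allow for it. Among the 25, 13 were at least 2-fold higher in the later pair. The share among all genes that passed in that way was not counted, so the 13 has no background to be read against. Of the 22 lower genes, 18 had a negative difference (50.5% did) and 7 were at least 2-fold lower (Bhlhe40, Dbp, Ptchd1, Tagln, Dcn, Abcc4 and H2-Q2), against 2% of all tested genes. Ndrg1 (0.10), Aqp3 (0.23), Vldlr (0.36) and Shcbp1 (0.15) had a positive one. Ctla2a differed by 4.15 in the later pair, Igf2 by 3.11, Kdr by 2.96, Tal1 by 2.14 and Etv2 by 1.48, and Abcc4 by -2.44. No gene was 2-fold apart in opposite directions in these 2 pairs. The later pair lies at a stage with 335 genes (3.84%) at least 2-fold apart, and the days of a medium come from cultures whose independence the labels do not state.

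**Figure D5:**
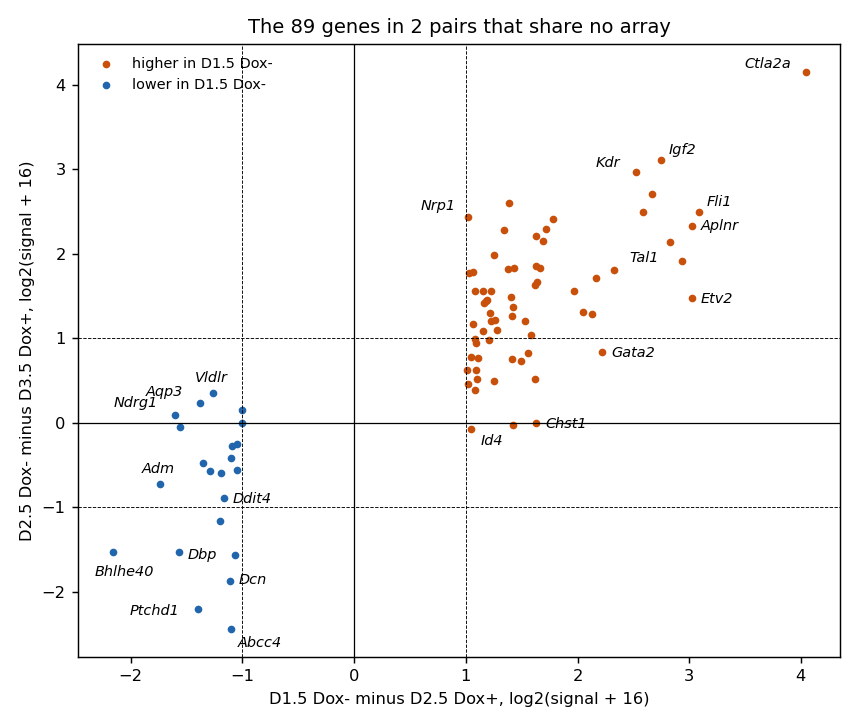
Difference of D2.5 Dox- minus D3.5 Dox+ (y axis) against that of D1.5 Dox- minus D2.5 Dox+ (x axis), both on the log2(signal + 16) scale, for the 89 genes at least 2-fold apart in the latter, with dashed lines at 2-fold. Of the 67 higher genes (orange) 48 lie above the upper dashed line, and of the 22 lower genes (blue) 7 lie below the lower one.

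Where a gene had a second-brightest probe set, it mostly gave the same sign as the brightest. Of the 67 higher genes 38 had a second probe set, which had the same sign for 35 and was itself at least 2-fold apart for 11. The other 3 were Igf2, Amot and Igfbp4, and none was opposite by 0.5 or more. Of the 22 lower genes 12 had one, with the same sign for 11 and at least 2-fold for 4. The agreement over all tested genes was not counted. Further probe sets of a gene entered only the mean of all probe sets, which left 39 higher and 13 lower genes.

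Promoter letters were counted over the 250 bases before the start, on both strands, in the 51 higher and 15 lower genes with a sequence in RefSeq, out of 7170 such tested genes. TGACGTCA stood in 4 of the 51 (7.84%; Flt1, Peg3, Plk2 and Zdbf2) and 0 of the 15, against 3.36% of tested genes. Its core TGACG, which every TGACGTCA contains, stood in 20 of the 51 (39.2%) and 0 of the 15, against 33.0%. ACGTG stood in 7 of the 15 lower genes (46.7%; Abcc4, Ampd3, Anxa2, Dbp, Ddit4, Ier3 and Ppp1r3c) and in 11 of the 51 (21.6%), against 26.6%. The ETS letters CCGGAA stood in 5 of the 51 (9.80%) and 2 of the 15, against 27.7%. The GATA letters AGATAA stood in 6 of the 51 (11.8%) and 2 of the 15, against 6.32%. Etv2 holds no TGACG in its window, which says nothing of other parts of the gene. A match is a run of letters and not a bound site, and 5 sets of letters were counted.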

How the data were processed

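Biotin-labelled RNA of 9 mouse ES cell cultures was measured on 1 array each, and groups were taken from the labels. The values the authors deposited are intensity per probe set, not logged, made with GCOS per the submitters' processing notes and scaled to an average of 100 per the labels; the deposited values had a mean of 100 on every array after the highest and lowest 2% were left out. How background was corrected, and the software version, are not given there. No further normalization was applied.

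Of 45101 probe sets, 34945 carried 1 gene symbol in the platform annotation (34741 matched by gene ID to RefSeq, GRCm38.p6), 932 carried several and 9224 were unnamed here; 64 were controls. The brightest probe set stood for each of 18193 genes. Differences are log2(signal + 16); genes with a signal of 50 or more on at least 2 arrays were compared, and those at least 2-fold apart were counted. With 1 array per group there was no test. Counting was tested on simulated data with 4-fold changes planted in bright genes. Dim genes and smaller differences were not covered. Python 3.11.15, pandas 2.3.3 and numpy 2.4.6 were used. Promoter sequences were RefSeq's, given as a table for GRCm38.p6.

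Members, gene lists, searched letters and comparisons were chosen with earlier results of these data known. Named genes are the 15 furthest up and down, the 5 furthest above and below the Dox+ course, the 3 largest of each list and a fixed set; other genes, and the split by position on the Dox+ course, were chosen after their values were seen. Alternatives were other pseudocounts (1 and 64), no signal limit, a limit on the 7 other arrays, quantile normalization, the mean of all probe sets and an interpolated Dox+ course.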

Additional observations from a re-analysis of the deposited data

Results flagged for a closer look

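Among the 10092 probe sets with several gene symbols or none, which no comparison above used, 1617 passed the signal limit and 9 were at least 2-fold apart between D1.5 Dox- and D2.5 Dox+, 8 higher and 1 lower in D1.5 Dox-. The same count was 4 between the media on D0.5. The largest of these differences was 4.02, and the probe sets were not assigned to genes here.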

How the results depend on the processing

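Without replicates, a change was counted as small if it was under 0.202, the standard deviation of the D0.5 pair. The 89 genes at least 2-fold apart (67 higher, 22 lower) became 184 (117 and 67) with a pseudocount of 1, 31 (23 and 8) with 64, and 52 (39 and 13) with the mean of all probe sets. The 21 genes outside the Dox+ course became 32 (25 above, 7 below) with a pseudocount of 1 and 7, all above, with 64. No signal limit, quantile normalization, the limit on the 7 other arrays and the interpolated course kept the counts within 1.5 times, at 125, 92, 79 and 67, and of the 89 genes 88 were among the 92 and 51 among the 67. No named gene at least 2-fold apart changed direction under any of the 7 alternatives that gave it a value; 26 of 42 stayed 2-fold apart with a pseudocount of 64 and with the interpolated course. Signals near background limit the size of the largest differences. No paired analysis was possible because the pair compared is 1 array against 1 from different days, and the labels give no replicate numbers. A fit of medium and day over all days, which would measure the media at equal days, was not run.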
